A study of Homo sapiens with 12 samples.

Results

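The 10 genes followed here are widely used to mark Müller glia, the radial glial cells that span the vertebrate retina: SLC1A3, GLUL, RLBP1, KCNJ10, AQP4, VIM, GFAP, NES, SOX2 and SOX9. They are 10 of the 33616 genes named on the arrays by a probe set with a single gene symbol, and 11 of the 36176 such probe sets belong to them. VIM had 2 probe sets and each of the other genes had 1, so the brighter VIM probe set stands for that gene unless said otherwise. The cells were MIO-M1, an established human line derived from retinal Müller glia, into which a Tet3G transactivator under the CMV promoter had been placed and a single clone selected. From that clone came a line with a DMPK minigene without CTG repeats, MIO-M1-CTG(0), and a line whose minigene carries 648 CTG repeats, MIO-M1-CTG(648), below CTG(0) and CTG(648) cells. Every group therefore holds the transactivator, a minigene under the doxycycline-responsive promoter TRE3G, and G418 and puromycin selection. Arrays came from non-induced cells of each line and from cells kept in 1 µg/mL doxycycline (Dox) for 8 days, and each of the 4 groups has 3 arrays, described as biological replicates, 12 in all. Each repeat length was represented by 1 line, so the repeat and any other difference between the lines cannot be told apart.

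In the retina, Müller glia take up the glutamate that neurons release, turn it into glutamine, buffer potassium and move water along the cell, and return retinoids to cone photoreceptors. Their cytoskeleton is built from the intermediate filament vimentin, with glial fibrillary acidic protein added when the retina is injured. The transcription factors SOX2 and SOX9 are kept from the retinal progenitor into the mature glial cell. In culture, Müller glia are known to lose some of the genes of the mature cell and to take on progenitor features. Expanded CUG repeats in DMPK RNA cause myotonic dystrophy type 1, and the study asked what the repeat does to glial gene expression.

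The deposited values are log2 signals, and array medians lay between 4.24 and 4.32. By the median correlation of an array with the others of its group over all probe sets, 0.9805 to 0.9842, no array stood apart. Correlations between groups were not set beside these values. The highest deposited signal was 19.62, and the step that set this scale is not given in the sources used here. All differences below are therefore on the deposited log2 scale, and a fold derived from one holds only on that scale. The 4 groups were fitted together with limma, and past the threshold means that a log2 difference is larger than 0.5 in size and its unadjusted p is below 0.005, the limits that the methods give. Adjusted p-values are limma's, adjusted by the Benjamini-Hochberg procedure over all 36176 of these probe sets. DMPK, whose RNA the minigene adds to, had a mean signal of 7.95 ± 0.25 (SD, n = 3) in non-induced and 8.54 ± 0.08 in Dox-induced CTG(0) cells. In the CTG(648) line it was 10.19 ± 0.17 non-induced and 9.72 ± 0.15 with Dox, so it did not rise with Dox in that line (difference -0.47, adjusted p = 0.269). Between the non-induced lines DMPK was already 2.24 higher in CTG(648) cells (adjusted p = 8.93e-07). Whether this probe set reads minigene RNA beside the endogenous transcript was not checked. The DMPK signal therefore did not check the Dox labels of CTG(648), and the groups are named as labelled.

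The signals divided the 10 genes. SLC1A3, GLUL, VIM, SOX2 and SOX9 lay between 10.91 and 17.73 on all 12 arrays, whereas RLBP1, KCNJ10, AQP4, GFAP and NES stayed under 5 on all 12. Signals of different probe sets do not compare RNA levels, since probes differ in how well they bind. As a guide to what a probe set gives for a gene of another cell type, 10 photoreceptor markers, among them the transcription factor CRX and the transducin GNAT1, spanned 3.04 to 6.49. Of the 10 genes, 5 were above 6.49 on every array. None of the other 5 exceeded 6.49 on any array. For a probe set with signals in this range a fall may have been missed, although some falls within it passed the threshold, such as that of NEFL below. A difference against such a group is given as measured and may understate the change in RNA. RLBP1 and KCNJ10 were below the array median on all 12 arrays, AQP4 was above it on 2, NES on 11 and GFAP on 12. By these signals the cells carried the transporter, the glutamine enzyme, vimentin and both SOX factors of Müller glia. The retinoid carrier, the potassium and water channels, GFAP and nestin gave no more signal than the photoreceptor markers. The set is therefore called by its gene names below and not by a mature state. The plot of signals by gene shows this division.

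**Figure D1:**
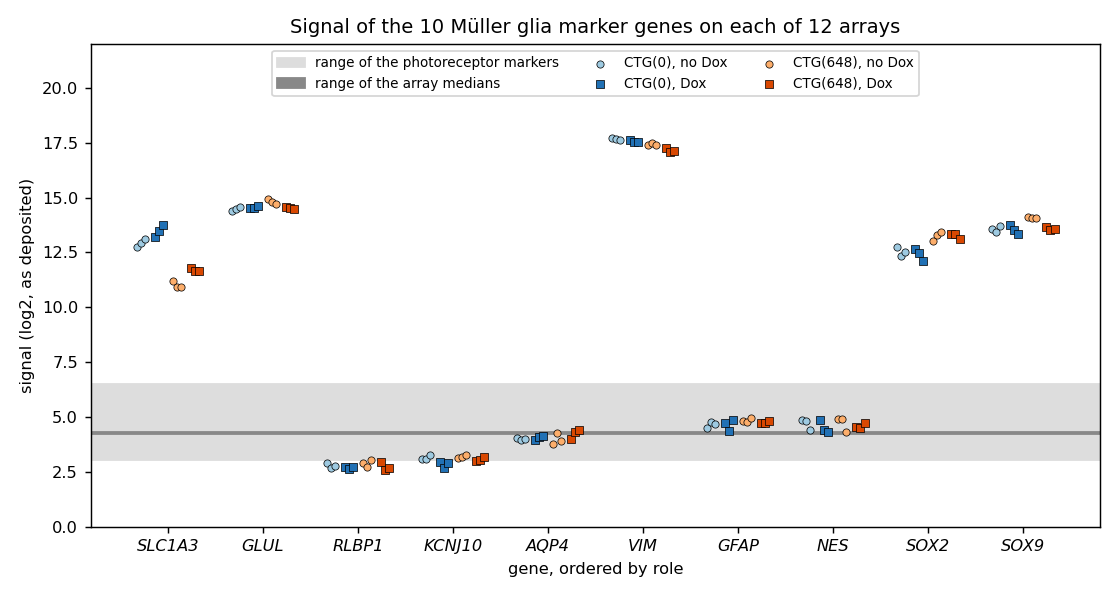
Signal (log2, as deposited) of the 10 genes on each of the 12 arrays, ordered by role, with circles for non-induced and squares for Dox-induced cells. The pale band is the range of 10 photoreceptor markers (3.04 to 6.49) and the dark band that of the array medians; SLC1A3, GLUL, VIM, SOX2 and SOX9 lie at 10.91 or above and the other 5 genes lie under 5.

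For each gene, 4 comparisons between groups and the interaction, which sets the Dox response of one line against that of the other, were made. With Dox in CTG(648) cells (contrast A), 1 of the 10 genes was higher, SLC1A3, and 0 were lower, where 1.28% of all probe sets tested were higher and 1.14% lower. Between the Dox-induced lines (contrast B), SOX2 was higher and SLC1A3 lower in CTG(648) cells, 1 gene each way, against 6.34% and 5.33% of all probe sets. Between the non-induced lines, 2 were higher (SOX2 and SOX9) and 1 lower (SLC1A3), against 5.63% and 6.11%. With Dox in CTG(0) cells 0 of 10 passed in limma, against 0.58% higher and 0.6% lower. In that comparison 1 of the 10 had an unadjusted p under 0.05, and the methods' t-test at the same limits called 0. The methods' t-test is the unpaired test that the study names for 2 groups in general, whereas its arrays were analysed with limma. In the interaction 0 of 10 passed in limma and 1 had an unadjusted p under 0.05, against 1.1% higher and 1.22% lower. With 10 genes, 1 called gene is already 10% of the set, so these counts are given as a description. The same percentages are the background for the list counts below.

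**Figure D2:**
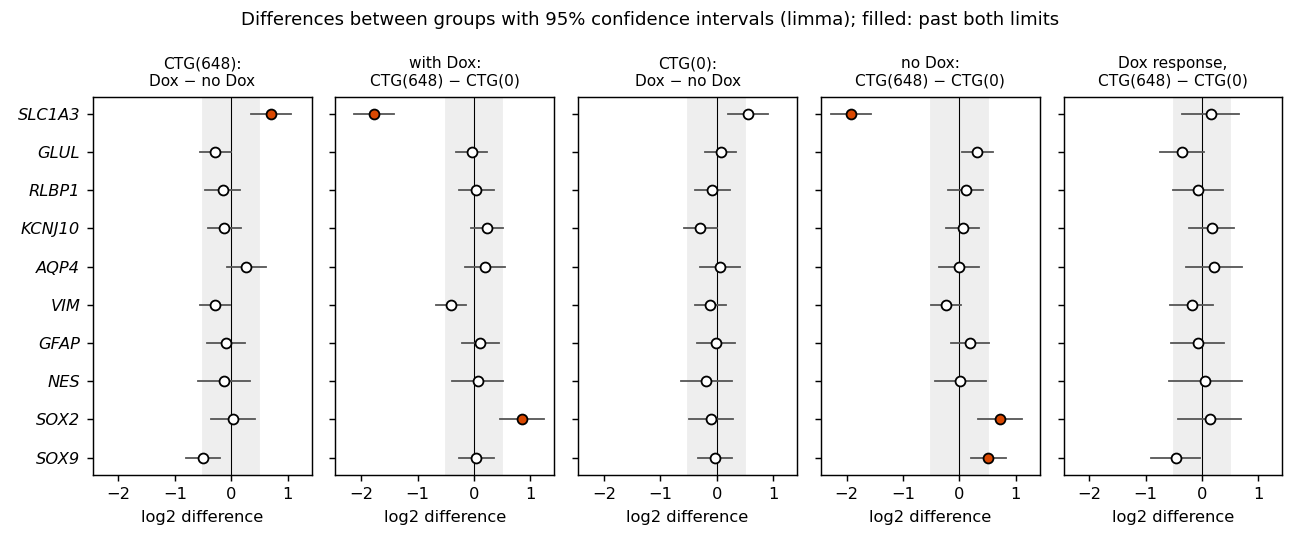
Log2 differences of the 10 genes in the 5 comparisons with 95% confidence intervals from limma. Filled points are past both limits and the grey band is the range of differences of 0.5 or less; only SLC1A3, SOX2 and SOX9 have filled points.

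SLC1A3 encodes the glutamate transporter EAAT1 (GLAST), through which Müller glia clear glutamate from the retina. The gene lies on chromosome 5 from 36596588 to 36688334 (GRCh38.p14). Its signals on the 3 arrays of a group were 12.77, 12.91 and 13.12 in non-induced and 13.22, 13.47 and 13.77 in Dox-induced CTG(0) cells. In CTG(648) cells they were 11.18, 10.91 and 10.94 without Dox and 11.81, 11.67 and 11.67 with Dox. No 2 of the 4 groups overlapped, and the order from high to low was Dox-induced CTG(0), non-induced CTG(0), Dox-induced CTG(648) and non-induced CTG(648). The difference between the non-induced lines was -1.92 (standard error 0.17, 95% confidence interval -2.28 to -1.57, adjusted p = 5.02e-06). It was -1.77 between the Dox-induced lines (standard error 0.17, interval -2.13 to -1.41, adjusted p = 1.26e-05), a fold of 3.41 on this scale. SLC1A3 thus stood lower in CTG(648) cells whether or not Dox had been given. Because the study removes from contrast B what already differs between the non-induced lines, SLC1A3 would be removed there. By the limma calls used here SOX2 would be removed as well. No such removal was made here for contrast A or contrast B.

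Within CTG(648) cells SLC1A3 was higher with Dox by 0.71 (standard error 0.17, interval 0.35 to 1.06, unadjusted p = 8.98e-04 in limma). This passed the study's limits but not the adjustment over all probe sets (adjusted p = 0.0889). In CTG(0) cells, whose minigene has no repeat, the Dox difference was 0.55 (interval 0.20 to 0.91, unadjusted p = 0.00524 in limma, adjusted p = 0.403), just outside the p limit. The response to Dox differed between the lines by 0.15, with an interval of -0.35 to 0.66 (adjusted p = 0.875). A larger rise of SLC1A3 in one line than in the other was thus not detected, and a difference of up to 0.66 was not excluded by the interval.

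**Figure D3:**
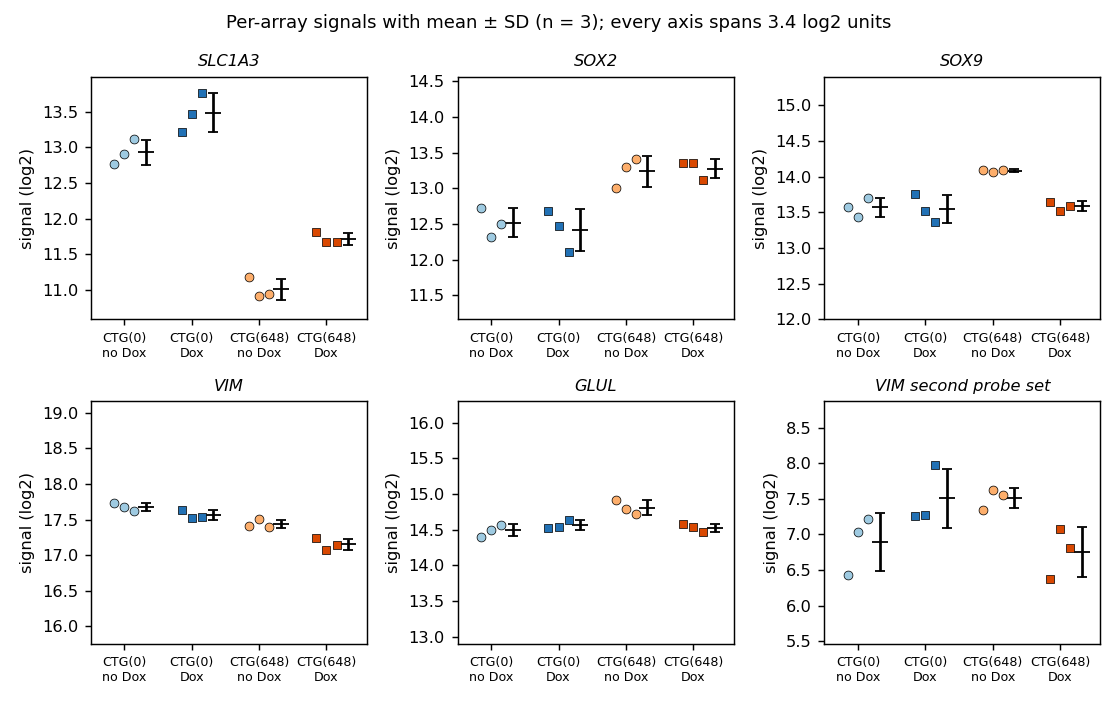
Signals (log2) of SLC1A3, SOX2, SOX9, VIM, GLUL and the second VIM probe set on each array, with the mean ± SD of the 3 arrays at the right of each group. SLC1A3 separates all 4 groups, SOX2 separates the lines, and SOX9 and GLUL are highest on the non-induced CTG(648) arrays.

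The promoter windows of SLC1A3 and SOX2 are shown because these 2 genes differed between the lines in opposite directions and a SOX-family core motif was looked for in them. The windows are the 250 bases before a transcription start in RefSeq (GRCh38.p14), written 5′ to 3′ on the strand of the gene, with the letters AACAAT in capitals. SLC1A3 has 3 annotated starts, and its first window is chr5:36596338-36596587 on the plus strand. The SOX2 window is chr3:181711675-181711924, also on the plus strand.
SLC1A3, first start: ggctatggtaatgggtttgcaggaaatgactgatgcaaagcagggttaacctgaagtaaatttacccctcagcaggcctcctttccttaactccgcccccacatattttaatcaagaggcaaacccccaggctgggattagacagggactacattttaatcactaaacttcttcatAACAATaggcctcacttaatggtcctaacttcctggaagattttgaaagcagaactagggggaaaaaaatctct
SOX2: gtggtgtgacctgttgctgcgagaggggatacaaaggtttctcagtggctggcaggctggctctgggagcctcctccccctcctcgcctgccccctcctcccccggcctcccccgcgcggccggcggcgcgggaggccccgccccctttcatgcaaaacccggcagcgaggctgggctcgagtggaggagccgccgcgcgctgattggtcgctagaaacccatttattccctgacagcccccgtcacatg
The motif AACAAT was searched on both strands, with no other motif. It was present once in the first SLC1A3 window, its first letter 74 bases before the start, and absent from the windows of the other 2 SLC1A3 starts and of SOX2. Of all 35116 windows of this length, 8.98% held it. Windows were found for 8 of the 10 genes, 13 windows in all, and the motif was in 2 of them, the other being the first of AQP4, the water channel gene. GFAP and SOX9 had no entry. The windows also differed in base composition: that of SOX2 has 68.8% G and C and 20 CpG, while the first of SLC1A3 has 43.2% and 1 CpG, where the medians over all windows are 58.0% and 11. GLUL (74.8% and 25 CpG in its first window) and KCNJ10 (76.8% and 25 CpG) were GC-rich, and the first AQP4 window had 30.4% and 1 CpG. A match is a stretch of letters and not evidence of binding.

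GLUL encodes glutamine synthetase, which turns the glutamate taken up into glutamine and is one of the classical Müller glia markers (chromosome 1, 182378098 to 182391790). Its 12 signals spanned 14.40 to 14.92. The non-induced CTG(648) arrays were the highest, with 14.92, 14.79 and 14.72, above all 9 others, which lay between 14.40 and 14.64. The difference from non-induced CTG(0) cells was 0.32 (standard error 0.13, adjusted p = 0.132) and the Dox difference in CTG(648) cells -0.28 (standard error 0.13, adjusted p = 0.456). Both are under the fold limit. With Dox the lines differed by -0.04 (interval -0.31 to 0.24), so any difference in GLUL between the Dox-induced lines was at most 0.31 in size by this interval. SLC1A3 and GLUL, which act one after the other on glutamate, thus had unlike patterns across the 4 groups.

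Of 13 further measured genes of glutamate and glutamine handling, 0 were higher and 1 lower in contrast A (median -0.22, against 0.01 over all probe sets). In contrast B, 2 were higher and 1 lower (median 0.01 against 0.01), and between the non-induced lines 3 were higher and 0 lower (median 0.10 against 0.00). SLC38A3, a glutamine transporter of the plasma membrane, was the gene lower in contrast A (-1.42, standard error 0.21, adjusted p = 0.0049 in limma). Its mean signals were 7.34 and 7.88 in CTG(0) cells without and with Dox, and 9.57 and 8.15 in CTG(648) cells. It stood 2.23 higher in the non-induced CTG(648) line (adjusted p = 1.06e-05) and its response to Dox differed between the lines. Pyruvate carboxylase (PC), which supplies carbon for new glutamate in glia, was higher in CTG(648) cells both without Dox (1.21, adjusted p = 1.30e-04) and with it (0.72, adjusted p = 0.00619). The neutral amino acid transporter SLC1A4, a relative of SLC1A3, was lower in contrast B (-0.69, adjusted p = 0.00539), and the mitochondrial aminotransferase GOT2 was higher (0.60, adjusted p = 0.00828). SLC1A2, the glutamate transporter of astrocytes, had means between 4.76 and 5.05 and passed in none of the 5 comparisons.

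RLBP1 encodes CRALBP, the retinaldehyde-binding protein of Müller glia and retinal pigment epithelium (chromosome 15, 89209869 to 89221579). Its signals lay between 2.61 and 3.05 on the 12 arrays, the 4 groups overlapped, and its differences lay between -0.15 and 0.11 with none past the threshold. CRALBP is one of the markers that the study names for MIO-M1 cells from earlier work, with glutamine synthetase and the EGF receptor. The arrays here read RNA of the derived lines and not protein. EGFR, which was chosen here after its values were seen, had mean signals of 10.01 and 9.60 in CTG(0) cells without and with Dox, and 10.04 and 10.59 in CTG(648) cells. It was higher by 0.55 in contrast A (adjusted p = 0.193) and by 1.00 in contrast B (adjusted p = 0.00113). Of 15 measured genes of retinoid handling, 1 was higher and 0 lower in contrast A (median 0.25, all probe sets 0.01), and 3 were higher and 0 lower in contrast B (median 0.23, all probe sets 0.01). Between the non-induced lines 1 was higher and 2 lower (median 0.02, all probe sets 0.00). RDH10, a retinol dehydrogenase, was higher in CTG(648) cells by 1.56 without Dox (adjusted p = 3.29e-05) and by 0.87 with Dox (adjusted p = 0.00337). CYP26A1 and CYP26B1, which degrade retinoic acid, were higher in contrast B by 0.93 and 0.70 (adjusted p = 0.00722 and 0.00976), from mean signals of 4.17 and 4.72 in that low range. The 2 lower between the non-induced lines were CRABP2, a retinoic acid carrier (-0.87, adjusted p = 0.00779), and LRAT, lecithin retinol acyltransferase (-0.62, adjusted p = 0.024), which was named after its values were seen.

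KCNJ10 encodes Kir4.1, the potassium channel of Müller glia (chromosome 1, 160037467 to 160070160), and AQP4 encodes their water channel aquaporin 4 (chromosome 18, 26852038 to 26865803). KCNJ10 signals lay between 2.70 and 3.29. The 3 Dox-induced CTG(0) arrays (2.96, 2.70 and 2.90) were below the other 9, with a Dox difference of -0.29 in that line (adjusted p = 0.599) that did not pass. AQP4 signals lay between 3.78 and 4.42, and every group overlapped every other. Its greatest difference in size was 0.27 in contrast A (interval -0.08 to 0.62, adjusted p = 0.603). No rise or fall of KCNJ10 or AQP4 passed the threshold, and the contrast A intervals end at 0.17 for a rise of KCNJ10 and at 0.62 for one of AQP4.

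Of 20 other measured genes of potassium and water handling, 0 passed in contrast A in either direction (3 had an unadjusted p under 0.05 in limma), with 6 higher and 0 lower in contrast B and 3 higher and 0 lower between the non-induced lines. Their medians were -0.03, 0.14 and 0.08, beside 0.01, 0.01 and 0.00 over all probe sets. KCNJ2, which encodes another inward rectifier of the Kir family, had mean signals of 4.81 and 4.69 in CTG(0) cells without and with Dox and of 7.08 and 7.13 in CTG(648) cells. It was higher by 2.27 without and 2.44 with Dox (adjusted p = 1.84e-05 and 1.13e-05), measured against signals in the photoreceptor range. DTNA, which encodes dystrobrevin of the dystrophin complex that holds these channels at the glial endfoot, was higher by 1.89 and 1.64 (adjusted p = 6.26e-06 and 2.54e-05). SLC4A4, a sodium bicarbonate cotransporter, was higher by 1.25 and 0.92 (adjusted p = 0.00158 and 0.0128). KCNMA1, the large-conductance calcium-activated potassium channel, was lower with Dox in CTG(0) cells (-0.99, adjusted p = 0.195) and 1.00 higher in contrast B (adjusted p = 0.0034).

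VIM encodes vimentin, the main intermediate filament of Müller glia (chromosome 10, 17228241 to 17237593). Its signals were 17.73, 17.67 and 17.62 in non-induced and 17.64, 17.52 and 17.53 in Dox-induced CTG(0) cells. They were 17.41, 17.51 and 17.40 in non-induced and 17.24, 17.08 and 17.14 in Dox-induced CTG(648) cells. The means descended in that order, and the ranges of the first 2 groups overlapped while those of the 2 CTG(648) groups overlapped no other group. The difference in contrast B was -0.41 (standard error 0.12, interval -0.68 to -0.14, adjusted p = 0.0459), which is under the fold limit (it was past both limits, at -0.58, when the mean or median of both VIM probe sets was taken), and in contrast A it was -0.29 (interval -0.55 to -0.02, adjusted p = 0.425).

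The second VIM probe set, which carries the symbol but no Entrez ID in the platform table, ran otherwise. Its signals were 6.43, 7.03 and 7.22 in non-induced and 7.26, 7.28 and 7.98 in Dox-induced CTG(0) cells. They were 7.35, 7.63 and 7.55 in non-induced and 6.38, 7.08 and 6.81 in Dox-induced CTG(648) cells. Dox went with a higher signal in the first line (0.61, adjusted p = 0.543) and a lower one in the second (-0.75, adjusted p = 0.255). Neither passed, but the interaction of -1.37 did (standard error 0.35, interval -2.13 to -0.60, adjusted p = 0.146). The brighter probe set had an interaction of -0.18 (interval -0.56 to 0.20). The Dox differences of the 2 probe sets named VIM parted in CTG(0) cells, where that of the brighter was -0.11. In CTG(648) cells both were lower with Dox, the brighter at -0.29. In contrast B the second probe set was also lower (-0.75, adjusted p = 0.0698), without passing.

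GFAP, the filament that marks reactive Müller glia (chromosome 17, 44903159 to 44915500), had signals between 4.35 and 4.97. Its group means were 4.66 ± 0.13 and 4.65 ± 0.27 in CTG(0) cells without and with Dox, and 4.85 ± 0.10 and 4.76 ± 0.04 in CTG(648) cells (SD, n = 3). In contrast A the difference was -0.10 with an interval of -0.43 to 0.24, and in contrast B 0.11 with an interval of -0.22 to 0.44. NES, which encodes the progenitor filament nestin (chromosome 1, 156668763 to 156677407), had signals between 4.30 and 4.93 with every group overlapping every other. Its within-group standard deviation of 0.28 was the widest of the 10 genes, and its differences lay between -0.18 and 0.07. Neither gene passed in any of the 5 comparisons.

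Of 17 other intermediate filament genes, 0 passed in contrast A in limma, and 0 had an unadjusted p under 0.05 there. In contrast B, 2 were higher and 0 lower (median 0.09, all probe sets 0.01), and between the non-induced lines 2 were higher and 1 lower (median 0.07, all probe sets 0.00). SYNM, whose product synemin assembles with vimentin, was higher by 1.98 between the non-induced lines and by 1.47 between the Dox-induced ones (adjusted p = 9.11e-05 and 0.00109). The keratin gene KRT18 was higher by 1.06 and 1.34 (adjusted p = 0.0248 and 0.00647). NEFL, a neurofilament gene, was lower between the non-induced lines (-1.13, adjusted p = 0.00124). Of 20 measured genes of reactive glia, a list that does not hold GFAP, 1 was higher and 1 lower in contrast A (median -0.01), and 5 were higher and 2 lower in each comparison between the lines (medians 0.15 with Dox and 0.08 without). FGF2, a growth factor gene, was the higher one in contrast A (1.10, standard error 0.21, adjusted p = 0.0322), and CHI3L1, a secreted chitinase-like protein of reactive astrocytes, was the lower one (-1.37, standard error 0.22, adjusted p = 0.00973), having stood 3.39 higher in non-induced CTG(648) than in non-induced CTG(0) cells (adjusted p = 3.80e-07). CP, which encodes ceruloplasmin, and TNC, which encodes the matrix protein tenascin C, were higher between the non-induced lines by 1.83 and 1.33 (adjusted p = 7.96e-06 and 2.17e-04), and in contrast B by 1.26 and 0.75 (adjusted p = 2.16e-04 and 0.0126). The lower genes of this list between the lines are named after their values were seen. HSPB1 was lower in CTG(648) cells, at -0.81 without and -0.79 with Dox (adjusted p = 0.00103 and 0.00132). SERPING1 was lower between the non-induced lines (-0.76, adjusted p = 0.00813), and OSMR in contrast B (-0.59, adjusted p = 0.00606).

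SOX2 encodes a transcription factor of neural stem cells that persists in Müller glia (chromosome 3, 181711925 to 181714436). Its signals were 12.73, 12.32 and 12.50 in non-induced and 12.68, 12.47 and 12.10 in Dox-induced CTG(0) cells. They were 13.00, 13.30 and 13.41 in non-induced and 13.35, 13.35 and 13.12 in Dox-induced CTG(648) cells. All 6 CTG(648) arrays were above all 6 CTG(0) arrays, and the groups of a line overlapped. SOX2 was higher by 0.86 between the Dox-induced lines (standard error 0.18, interval 0.46 to 1.25, adjusted p = 0.00656) and by 0.72 between the non-induced ones (standard error 0.18, interval 0.33 to 1.11, adjusted p = 0.0178). The methods' t-test at the same limits called neither, but called both at p under 0.05 with the same fold limit. The second call was also lost without replicate 2 or 3 of either non-induced line, at differences of 0.62 to 0.71. The Dox differences within the lines were 0.04 (interval -0.36 to 0.43) and -0.10 (interval -0.49 to 0.29).

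SOX9 encodes a glial and progenitor transcription factor (chromosome 17, 72121020 to 72126416). Its signals were 14.10, 14.06 and 14.09 in non-induced CTG(648) cells, above the 9 arrays of the other groups. Those had 13.65, 13.52 and 13.59 (Dox-induced CTG(648)), 13.58, 13.43 and 13.70 (non-induced CTG(0)) and 13.76, 13.52 and 13.36 (Dox-induced CTG(0)). The latter 3 groups thus overlapped and the former stood higher. The difference between the non-induced lines was 0.51 (standard error 0.14, interval 0.21 to 0.82, adjusted p = 0.0286). It lies next to the fold limit of 0.5, and 5 of the 6 arrays of those groups, all but replicate 3 of CTG(0), took it out of the calls when left out, at differences of 0.44 to 0.52. With Dox in CTG(648) cells the SOX9 difference was -0.50, which before rounding was just inside the fold limit, so it did not pass (standard error 0.14, interval -0.80 to -0.19, unadjusted p = 0.00385 and adjusted p = 0.175 in limma). With Dox the lines differed by 0.04 (interval -0.27 to 0.35). The interaction was -0.47 (interval -0.91 to -0.04, adjusted p = 0.42) and did not pass. SOX2 and SOX9 were thus both higher in the non-induced CTG(648) line, but their means with Dox lay apart: SOX2 stayed higher and SOX9 did not differ beyond its spread.

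Of 16 other measured SOX genes, 1 was higher and 0 lower in contrast A (median 0.04, all probe sets 0.01), and 2 were higher and 0 lower both in contrast B (median 0.17) and between the non-induced lines (median 0.09). SOX13, a SOXD factor, was higher with Dox in CTG(648) cells by 1.59 (standard error 0.17, adjusted p = 4.79e-04), from a mean of 10.04 to 11.63, and its means in CTG(0) cells were 10.47 and 10.25. SOX5, another SOXD factor, was higher in the CTG(648) line by 2.02 without and 1.91 with Dox (adjusted p = 1.68e-05 and 3.19e-05). SOX4 was higher between the non-induced lines (0.81, adjusted p = 0.0208).

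Among 24 further genes known from Müller glia, 1 was higher and 1 lower in contrast A (median 0.12, all probe sets 0.01), 7 were higher and 2 lower in contrast B (median 0.09, all probe sets 0.01), and 7 were higher and 4 lower between the non-induced lines (median 0.07, all probe sets 0.00). Over all probe sets 6.34% were higher and 5.33% lower in contrast B, and 5.63% and 6.11% between the non-induced lines. CRYAB, a small heat shock protein gene of stressed glia, had mean signals of 11.70 and 11.30 in CTG(0) cells without and with Dox and of 16.65 and 16.32 in CTG(648) cells. It was higher by 4.95 and 5.02 in the latter (adjusted p = 1.23e-08 and 1.73e-08). CDKN1B, whose product p27 keeps Müller glia out of the cell cycle, was higher by 3.37 and 3.88 (adjusted p = 5.21e-07 and 1.99e-07), from mean signals of 4.93 and 4.42 that lie in the photoreceptor range. DKK3, a secreted protein abundant in Müller glia, was higher by 1.08 and 1.25 (adjusted p = 3.43e-04 and 1.17e-04). HES1, an effector of Notch signalling, was lower by the differences -1.50 and -0.89 (adjusted p = 1.28e-04 and 0.00659). The share of each list past the threshold is drawn in the plot of list shares.

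**Figure D4:**
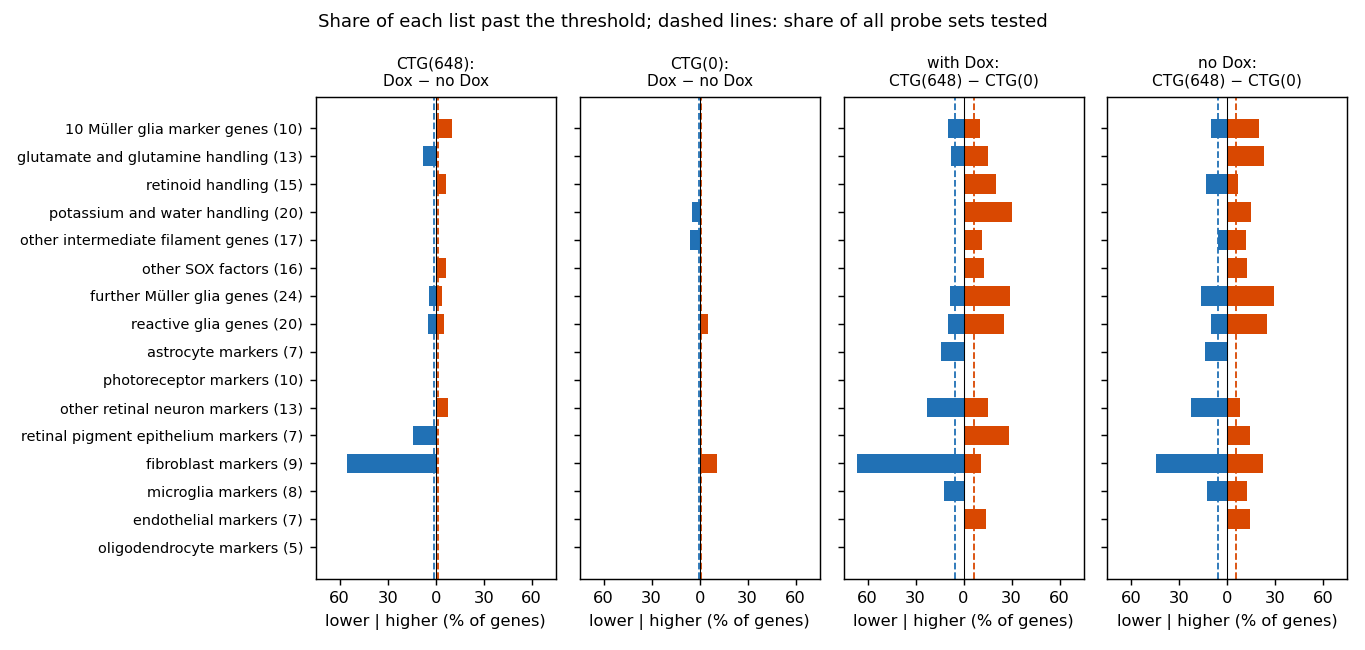
Percent of the measured genes of each list that were higher (right) or lower (left) past the threshold in 4 comparisons, with the number of genes measured in parentheses. Dashed lines mark the percent of all probe sets tested, such as 1.28% and 1.14% in contrast A; the fibroblast list has the longest bars to the left.

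Among the lists of markers of other cells, that of fibroblasts had the largest share past the threshold between the lines. Of 9 measured fibroblast markers, most of which encode matrix proteins, 1 was higher and 6 lower in contrast B (median -2.07), 2 were higher and 4 lower between the non-induced lines (median -0.67), and 0 were higher and 5 lower in contrast A (median -0.92). Over all probe sets the shares were 6.34% and 5.33%, 5.63% and 6.11%, and 1.28% and 1.14% in that order, with medians of 0.01, 0.00 and 0.01. Their mean signal on an array was 12.67 to 12.89 in non-induced and 12.85 to 13.39 in Dox-induced CTG(0) cells. In CTG(648) cells it was 11.46 to 11.92 without and 10.62 to 10.84 with Dox. None of the 9 was under 5 on all arrays. LUM, the proteoglycan lumican, was lower by the differences -7.04 and -8.41 without and with Dox (adjusted p = 1.43e-07 and 3.29e-08), and POSTN, periostin, by -3.00 and -4.42 (adjusted p = 1.57e-07 and 6.01e-09). ACTA2, smooth muscle actin, and PDGFRB were also lower with Dox in CTG(648) cells (-0.88 and -0.90, adjusted p = 0.0139 and 0.0163). The higher members went the other way between the lines and are named after their values were seen. PDGFRA, a growth factor receptor gene, was higher in CTG(648) cells by 2.04 without and 0.96 with Dox (adjusted p = 3.58e-06 and 0.00187), and FAP, a fibroblast surface protease gene, by 1.30 without Dox (adjusted p = 3.53e-04). In contrast A, where this list was lower, SLC1A3, SOX2 and SOX9 were at 0.71, 0.04 and -0.50. Between the lines SLC1A3 was lower in CTG(648) cells and SOX2 higher. The part of these markers in the differences of SLC1A3, SOX2 and SOX9 was not tested.

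Of 7 astrocyte markers, 0 were higher and 1 lower in contrast B and between the non-induced lines. That gene was GJA1, the gap junction gene connexin 43, at -1.81 and -1.66 (adjusted p = 2.96e-06 and 5.45e-06), and the mean signal of the list was 5.77 to 6.18 over all 12 arrays. Of the 7 astrocyte markers, 3 were under 5 on all arrays, as were 6 of 10 photoreceptor, 4 of 7 retinal pigment epithelium, 3 of 8 microglia, 4 of 7 endothelial and 5 of 5 oligodendrocyte markers. Photoreceptor markers had 0 past the threshold in limma in every comparison, with 0 at an unadjusted p under 0.05 apart from 1 between the non-induced lines. Among 13 markers of other retinal neurons, 2 were higher and 3 lower in contrast B, and 1 was higher and 3 lower between the non-induced lines. They included SYT1, a synaptic vesicle gene (1.97 without and 0.92 with Dox, adjusted p = 9.99e-06 and 0.00433), and RBPMS, an RNA-binding protein gene of ganglion cells (-1.47 and -1.15, adjusted p = 1.06e-04 and 8.03e-04). Of 7 retinal pigment epithelium markers, 2 were higher and 0 lower in contrast B, where 4 of the 7 differences were above 0. Between the non-induced lines 1 was higher and 0 lower. In contrast A 0 were higher and 1 was lower, TYRP1 (-0.87, adjusted p = 0.139). The pigment cell regulator MITF was higher in CTG(648) cells by 1.01 without and 0.99 with Dox (adjusted p = 0.00379 and 0.00449). The part of all these markers in the values of the 10 genes was not tested.

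For the 4 genes with the widest range of group means, the genes with the most similar pattern over the 12 arrays were looked up by Pearson correlation across all genes. The arrays share the split between the lines, so high values are a description of that split and carry no test. SLC1A3 (range of group means 2.48) was most like TBC1D2B (0.984), CHST15 (0.976) and ADGRL3 (0.974). SOX2 (range 0.86) was most like SUV39H1 (0.984), ADGRG1 (0.977) and STRAP (0.975). SOX9 (range 0.54) was most like FKBP10 (0.969), FAM13C (0.934) and RNU6-1178P (0.926), and FAM13C was also highest in the non-induced CTG(648) group, at a mean of 9.58 against 8.14 to 8.36 in the others. VIM (range 0.52) was most like GLUD1P2 (0.951), PLOD3 (0.949) and CAPZB (0.942). RLBP1, KCNJ10, AQP4, GFAP and NES had ranges of 0.19 to 0.35 and GLUL of 0.32.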

How the data were processed

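RNA of 12 cultures was hybridized to Clariom D Human arrays. The deposited log2 signals, rounded to 2 decimals, are what the authors made by RMA background correction and quantile normalization (submitters' processing notes: RMA, genome build hg38). Versions, not given in the sources used here, could not be stated. Of 135750 probe sets, 36176 had 1 gene symbol in the platform table, 1119 had several and 98455 none, and only the first were tested. The brightest probe set over the 12 arrays stood for a gene. Groups came from the sample titles.

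The values were used as deposited. The 4 groups were fitted with limma 3.58.1 under R 4.3.3 (8 residual and 5.11 prior degrees of freedom), which was tested on simulated data. The number of arrays, 3 in each group, limits the precision, and p-values measure the spread between those arrays. The 10 genes and the 15 further lists were chosen with earlier results of these data known. From a list, up to 4 genes past the threshold with the smallest p could be named, and DMPK was added to check the labels. Gene positions and promoter windows came from RefSeq (GRCh38.p14), without a genome sequence. Alternatives were adjusted p-values, a higher fold limit, array weights, a variance trend with intensity, fits on 2 groups only, the methods' t-test, the replicate number as a block, further scalings, a filter on dim probe sets, all probe sets, other summaries over probe sets, and each array left out in turn.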

Additional observations from a re-analysis of the deposited data

Results flagged for a closer look

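Of DMPK, the 10 Müller glia genes and all listed genes, these had a response to Dox that differed between the lines past the threshold, by the interaction in limma (log2 difference, CTG(648) minus CTG(0)). None of the 10 Müller glia genes is among them by its brighter probe set. The second VIM probe set differed by -1.37 (adjusted p = 0.146), from a Dox difference of 0.61 in CTG(0) and -0.75 in CTG(648) cells. DMPK differed by -1.06 (adjusted p = 0.0688), with 0.59 and -0.47.

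A further 5 genes had an adjusted p under 0.05. SOX13 differed by 1.81 (adjusted p = 0.00527), with a Dox difference of -0.22 without the repeat and 1.59 with it. CHI3L1 differed by -2.26 (adjusted p = 0.00703), with 0.89 and -1.37. SLC38A3 differed by -1.96 (adjusted p = 0.0113), with 0.54 and -1.42. PDGFRB differed by -1.40 (adjusted p = 0.0135), with 0.50 and -0.90. POSTN differed by -1.43 (adjusted p = 0.02), with 0.94 and -0.49.

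The other listed genes passed the study's limits without passing the adjustment. NEFL differed by 1.20 (adjusted p = 0.0881), EGFR by 0.97 (adjusted p = 0.112), KCNMA1 by 0.96 (adjusted p = 0.189) and CRABP2 by 0.92 (adjusted p = 0.207). Lower responses were those of FRZB, a secreted Wnt antagonist gene, at -1.22 (adjusted p = 0.208), TYRP1, a melanocyte enzyme gene, at -1.18 (adjusted p = 0.182), COL1A1, a collagen gene, at -1.13 (adjusted p = 0.158), PDGFRA at -1.08 (adjusted p = 0.0861), SOX4 at -1.06 (adjusted p = 0.184), ACTA2 at -1.06 (adjusted p = 0.0505), SYT1 at -1.05 (adjusted p = 0.126), FAP at -1.0 (adjusted p = 0.149) and KDR, a receptor gene of endothelial cells, at -0.87 (adjusted p = 0.208). A gap test for single outlying values within a group was not run on groups of 3 arrays.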

How the results depend on the processing

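For the 10 genes, 1258 of the values under alternatives kept direction and side of the threshold, 20 lost the call, 15 gained one and 2 reversed; sign changes of uncalled values within 1 standard error of 0 were given no direction. The reversed values were those of VIM between the non-induced lines, 0.19 with the mean and 0.19 with the median over its probe sets, against -0.23. Those settings also called VIM in contrast A (-0.52), giving 2 genes, in contrast B (-0.58, adjusted p = 0.0222 and 0.0225), giving 3, and in the interaction (-0.77), giving 1. An adjusted p under 0.05 at any fold also called it in contrast B (-0.41). In contrast A no gene passed (0) with an adjusted p under 0.05, at either fold setting, or with a fold limit of 1. In contrast B 1 gene passed with a fold limit of 1 and 1 by the methods' t-test at these limits. Between the non-induced lines 1 passed with a fold limit of 1. With Dox in CTG(0) cells SLC1A3 was called, giving 1 gene, with an intensity trend, with array weights, with the methods' t-test at p under 0.05, with quantile normalization once more, with the filter on dim probe sets and with the mean over probe sets, at differences of 0.54 to 0.59. It was also called there without replicate 3 of the non-induced or replicate 1 of the Dox-induced CTG(0) arrays, at 0.65 and 0.69.

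With each array left out in turn, 1 to 3 genes passed between the non-induced lines and 0 to 1 with Dox in CTG(0) cells; contrast A kept 1, contrast B 2 and the interaction 0. SOX9 between the non-induced lines also fell below the limits with the groups of the contrast alone (adjusted p = 0.0745), with arrays centred on their medians (0.48, adjusted p = 0.0516) and with all probe sets in the fit (adjusted p = 0.165). The replicate numbers did not pair the arrays: deviations of same-numbered arrays correlated between -0.09 and 0.05, and 1 of 12 arrays correlated best with its own number. With the replicate number as a block, 1, 2, 0, 3 and 0 genes passed in contrasts A and B, with Dox in CTG(0) cells, between the non-induced lines and in the interaction, the counts without it. The interaction was not run with the groups of a contrast alone or with the methods' t-test.

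Over all probe sets with 1 symbol, moderation over every probe set changed the number of calls for Dox in CTG(0) cells, 427, to 271. Centring the arrays on their medians changed the split there from 210 higher and 217 lower to 167 and 283, and quantile normalization once more changed contrast A from 462 and 413 to 550 and 356. Of the counts in the further lists, 25 fell by a large part with a fold limit of 1, 2 with centring and 1 with quantile normalization. Smaller losses of genes were counted there as no change. Signals under 5 limit what can be said of RLBP1, KCNJ10, AQP4, GFAP and NES.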
